A study of Mus musculus with 12 samples.

Results

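FGF receptors are receptor tyrosine kinases at the cell surface that bind fibroblast growth factors, and the klotho proteins are the co-receptors without which the hormone-like members of that family bind them poorly. The 7 genes described here are the receptors Fgfr1, Fgfr2, Fgfr3 and Fgfr4, the related receptor Fgfrl1, and the co-receptors Klb (beta-Klotho) and Kl (alpha-Klotho). They were taken by name and with no filter on their values, though earlier results of these data were known. Every probe set that the array's annotation gives to 1 of them alone was used. That gave 7 of 18193 genes and 19 of 34945 single-gene probe sets, and 0 probe sets named a member together with another gene.

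All mice were male ob/ob animals, which lack leptin and are obese, aged 3 months and fed normal chow. The 6 treated mice were injected into the abdominal cavity with 1 dose of 1 mg/kg of an agonistic antibody against FGFR1, while 6 pair-fed mice given a control IgG served as controls. Brown adipose tissue was taken on day 4 and each mouse was measured on 1 one-colour array. There was no lean or wild-type group, so the comparison is between treatments within leptin deficiency.

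Each of FGFR1 to FGFR4 has an outer part that binds ligand together with heparan sulfate and an inner kinase that signals through adaptors to the RAS, RAF, MEK and ERK cascade. FGFRL1 binds the same kinds of ligand but lacks the kinase. Beta-Klotho joins FGFR1 to form the receptor for FGF21, a hormone that acts on fat, and joins FGFR4 for the bile acid hormone of the gut. Alpha-Klotho serves FGF23 and is best known from kidney. An antibody that activates FGFR1 acts on the receptor protein itself.

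The values are log2 expression after RMA, which normalizes arrays together and reduces the probes of a set to 1 value. The scale of the table ran from 3.16 to 14.9, and array medians lay at 7.19 to 7.23. The lowest correlation between any 2 arrays across probe sets was 0.9896. The means of the 10 measured brown adipocyte markers lay at 11.4 to 11.8 on control arrays and 11.7 to 11.8 on anti-FGFR1 arrays, above every array's median. No other tissue was measured to compare them with. Skeletal muscle markers varied widely, from 9.26 to 11.6 on control arrays and from 6.89 to 11.5 on anti-FGFR1 arrays. Endothelial markers were lower after anti-FGFR1, 9.67 to 9.93 on control arrays against 9.42 to 9.66 (exact permutation p = 0.0022, two-sided), with 8 of 14 called lower and 0 higher. Smooth muscle and pericyte markers were lower as well, 9.93 to 10.1 against 9.60 to 9.79 (exact permutation p = 0.0022), with 7 of 10 called lower and 0 higher. Macrophage markers lay at 9.60 to 10.3 on control arrays and 9.90 to 10.3 on anti-FGFR1 arrays (exact permutation p = 0.048), with 3 of 14 called higher. Over all genes, 5.09% were called lower and 2.94% higher. In whole tissue, fewer cells of a type and less RNA per cell cannot be told apart.

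The promoters of Fgfrl1 and Klb are shown because Fgfrl1 carried the one change among the members that passed the test and Klb is the co-receptor that was measured brightly but did not pass. Each is the RefSeq sequence of GRCm38.p6, from 250 bases before the start of transcription to 50 after it, on the plus strand. The Fgfrl1 window is chr5:108693979-108694278 and the Klb window is chr5:65348161-65348460. Capitals mark matches, on either strand, to the GC box GGGCGG, the CCAAT box (ATTGG on the other strand), the TATA box TATAAA and the ETS core CCGGAA.
Fgfrl1: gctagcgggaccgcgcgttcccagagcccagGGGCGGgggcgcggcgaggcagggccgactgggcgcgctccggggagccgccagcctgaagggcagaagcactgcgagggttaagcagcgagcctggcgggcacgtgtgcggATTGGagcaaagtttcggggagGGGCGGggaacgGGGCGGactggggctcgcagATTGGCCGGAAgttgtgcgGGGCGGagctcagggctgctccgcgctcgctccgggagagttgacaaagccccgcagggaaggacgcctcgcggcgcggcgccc
Klb: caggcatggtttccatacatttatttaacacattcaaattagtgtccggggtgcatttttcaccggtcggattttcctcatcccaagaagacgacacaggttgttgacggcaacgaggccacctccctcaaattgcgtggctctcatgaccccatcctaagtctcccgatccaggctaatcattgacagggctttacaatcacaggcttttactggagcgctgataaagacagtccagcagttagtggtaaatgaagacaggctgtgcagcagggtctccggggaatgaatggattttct

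The Fgfrl1 promoter was 73.7% G and C with 37 CpG dinucleotides, and it held 4 GC boxes, 2 CCAAT boxes and 1 ETS core. One CCAAT match runs directly into the ETS match without overlapping it. The Klb promoter was 48.3% G and C with 10 CpG dinucleotides and held none of these motifs. Over the 32851 promoters in the table, the median was 52.7% G and C with 7 CpG dinucleotides. A GC box stood in 35.7% of them, a CCAAT box in 37.4%, an ETS core in 14.9% and a TATA box in 13.6%. RefSeq promoters were matched for 6 of the 7 members, 7 in all because Fgfr3 has 2 starts. The Fgfr4 promoter held 4 GC boxes and 1 ETS core at 65.3% G and C, and the Kl promoter 3 GC boxes at 67.3%. The Fgfr2 promoter held none of the motifs at 43.7%. These matches are descriptions of the letters in the windows, not measured binding sites.

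The question for the members was whether treatment with an activator of FGFR1 was followed by a change in the RNA of the receptor, its relatives or its co-receptors. For brown fat on day 4, each count of members that passed is given beside the share over all genes or probe sets. A set of 7 genes and 19 probe sets is too small to tell such counts from those shares. With 1 probe set per gene, 0 of the 7 genes passed at an adjusted p under 0.05 (limma), against 8.03% of all genes, while 3 of the 7 had an unadjusted p under 0.05, against 22.4% of all genes. With every probe set tested, 1 of 19 passed, a fall of Fgfrl1, against 6.90% of all probe sets, or 4.75% in that direction. A further count, of unadjusted p under 0.05, took in 6 of 19 member probe sets, against 21.2%. The same probe set was the 1 of 19 whose groups did not overlap, as was the case for 4.56% of all probe sets. Members' differences lay above 0 for 12 probe sets and below 0 for 7, with a median of 0.05 beside 0.00 over all probe sets. The largest difference of a member gene was 0.20 on the log2 scale, a fall of Fgfr1. The median absolute difference was 0.07 over all genes and 0.28 over the genes that passed. Kl (0.15), Fgfrl1 (-0.14) and Fgfr2 (0.13) also lay farther from 0 than the median of all genes, while Fgfr3, Fgfr4 and Klb lay nearer.

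**Figure D1:**
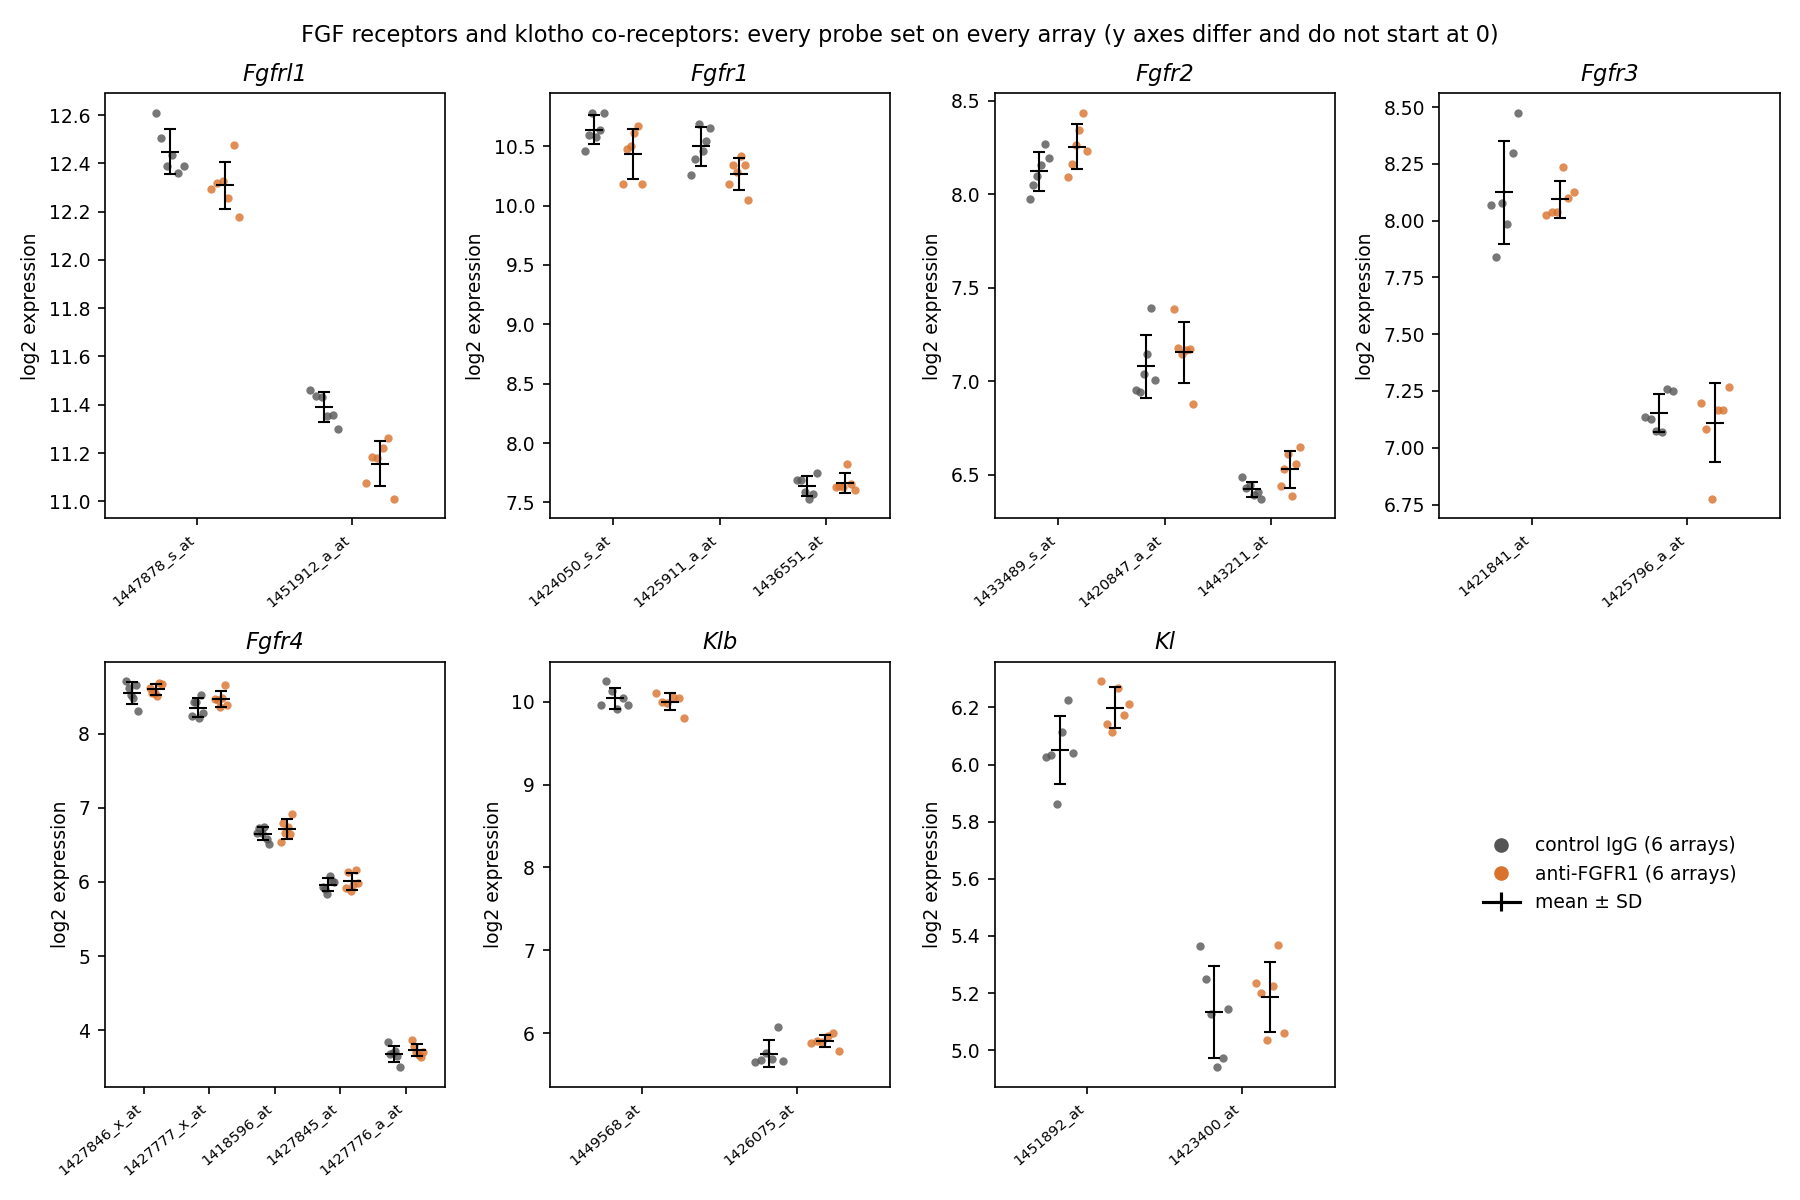
Log2 expression (vertical axes, 1 scale per panel) of each member on the probe sets shown, with 1 point per array and the 6 control IgG arrays beside the 6 anti-FGFR1 arrays; black marks give each group's mean ± SD. The groups of Fgfrl1 probe set 1451912_a_at do not overlap (11.30 to 11.46 against 11.01 to 11.26), while those of Klb probe set 1449568_at lie over each other.

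Probe set brightness depends on the probes as well as on the RNA, so levels are not compared between genes or between probe sets. As a description, 10 of the 19 member probe sets were brighter than the median probe set of the array, at 7.21, and 9 were dimmer. Both Fgfrl1 sets, all 3 Fgfr1 sets, 1 of 3 Fgfr2 sets, 1 of 2 Fgfr3 sets, 2 of 5 Fgfr4 sets and 1 of 2 Klb sets were among the brighter, and both Kl sets among the dimmer. In Affymetrix names, the ending _a_at marks probes shared by transcripts of 1 gene, _s_at probes that can be shared by transcripts of different genes, and _x_at probes that can also pick up other sequences. The endings apply to members of each kind here.

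Fgfr1 encodes the receptor that the antibody activates. Its brightest probe set, 1424050_s_at, read 10.46 to 10.78 on control arrays (median 10.62) and 10.18 to 10.67 on anti-FGFR1 arrays (median 10.49). The groups overlapped, with 2 of the 6 anti-FGFR1 arrays, replicates 1 and 6, below all controls. The mean went from 10.64 ± 0.12 to 10.44 ± 0.21 (SD, 6 arrays each), a log2 fold change of -0.20 ± 0.09 (SE, 95% interval -0.39 to -0.01), and it did not pass (limma adjusted p = 0.197 over genes).

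A second bright probe set of Fgfr1, 1425911_a_at, gave nearly the same picture. It read 10.25 to 10.69 on control arrays (median 10.50) and 10.04 to 10.42 on anti-FGFR1 arrays (median 10.31), again with 2 of 6 below all controls. Its log2 fold change was -0.23 ± 0.08 (95% interval -0.40 to -0.06), which did not pass over all probe sets (limma adjusted p = 0.101), although the exact permutation test of this probe set alone gave p = 0.026. Without control IgG replicate 1, the control array with the lowest reading, it was -0.28 and passed (limma adjusted p = 0.033).

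The dimmest Fgfr1 probe set, 1436551_at, did not share that difference. It read 7.53 to 7.75 on control arrays and 7.60 to 7.83 on anti-FGFR1 arrays, a log2 fold change of 0.03 ± 0.05 (95% interval -0.09 to 0.14). Its change was set against each bright set by an exact permutation test of the per-array difference, among 20 such pairs of probe sets within members. The differences, bright minus dim, were -0.23 (exact permutation p = 0.039) and -0.26 (exact permutation p = 0.022), with an adjusted p of 0.216 over the 20 pairs for both. Between mice of 1 group the bright sets varied together, with r = 0.87 over 12 arrays (adjusted permutation p = 0.0038) and rho = 0.85 (adjusted permutation p = 0.0048), and r = 0.88 without the 2 arrays farthest from the median. Against the dim set r was 0.35 and 0.23, with an adjusted permutation p of 0.722 for each. Which transcripts the dim set reads was not tested.

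**Figure D2:**
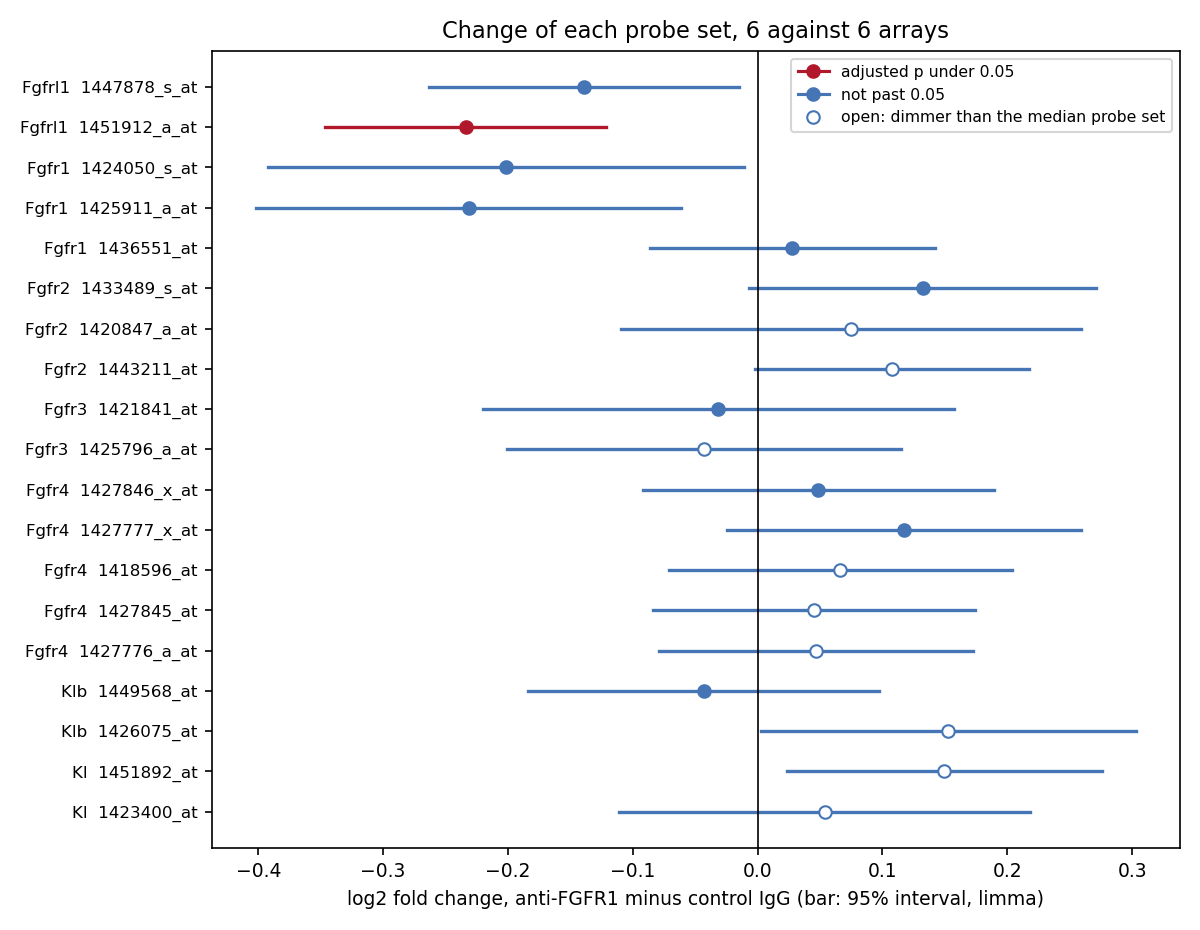
Log2 fold change of each of the 19 probe sets, anti-FGFR1 minus control IgG (horizontal axis), with its 95% interval from limma; open points are dimmer than the median probe set. The interval of Fgfrl1 probe set 1451912_a_at, -0.35 to -0.12, belongs to the one difference with an adjusted p under 0.05, and the 3 Fgfr1 sets lie at -0.20, -0.23 and 0.03.

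Fgfr1 readings followed the endothelial markers between mice. With group means removed, so that the treatment difference played no part, Fgfr1 probe set 1424050_s_at correlated with the mean of the 14 endothelial markers at r = 0.89 over 12 arrays (permutation p = 0.00054, adjusted p = 0.022 over 50 relations). The rank correlation was 0.80, which did not pass (adjusted permutation p = 0.080), and r was 0.82 without the 2 farthest arrays. For probe set 1425911_a_at r was 0.86 (adjusted permutation p = 0.022), rho was 0.83 (adjusted permutation p = 0.080) and r without the 2 farthest arrays was 0.83. These were the 2 of 50 relations, of Fgfr1, Fgfrl1 and Klb probe sets with 10 marker lists, that passed by Pearson's r, and 0 passed by rank. Other lists also varied with 1424050_s_at without passing: fibroblast and preadipocyte (r = 0.64), white adipocyte (0.60), general adipocyte (0.59), macrophage (0.59) and epithelium (-0.60). Their adjusted permutation p lay between 0.073 and 0.436. The relations were chosen after the data were seen.

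The endothelial mean was itself 0.25 lower after anti-FGFR1, a size like the Fgfr1 difference. With that mean as a covariate the Fgfr1 difference turned to 0.22 (limma adjusted p = 0.311), and with the smooth muscle and pericyte mean to 0.11 (limma adjusted p = 0.986). Both means separate the groups without overlap, so these fits have little left to compare, and 178 and 0 genes were called in them over the whole array. Adjusting for the macrophage mean instead moved Fgfr1 to -0.34, past the threshold (limma adjusted p = 0.037). That fit called 2080 genes over the whole array, against 1461 without a covariate. The 3' to 5' signal of control probe sets, a sign of RNA quality, is the mean of an Actb and a Gapdh difference. The mean and its Actb part differed between the groups (exact permutation p = 0.037 and 0.043). Its Gapdh part did not (exact permutation p = 0.506). As a covariate the mean moved Fgfr1 the other way, to -0.13 (limma adjusted p = 0.643), and probe set 1425911_a_at to -0.13 (limma adjusted p = 0.569). The part of endothelial or other cells in the Fgfr1 difference was not tested.

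**Figure D3:**
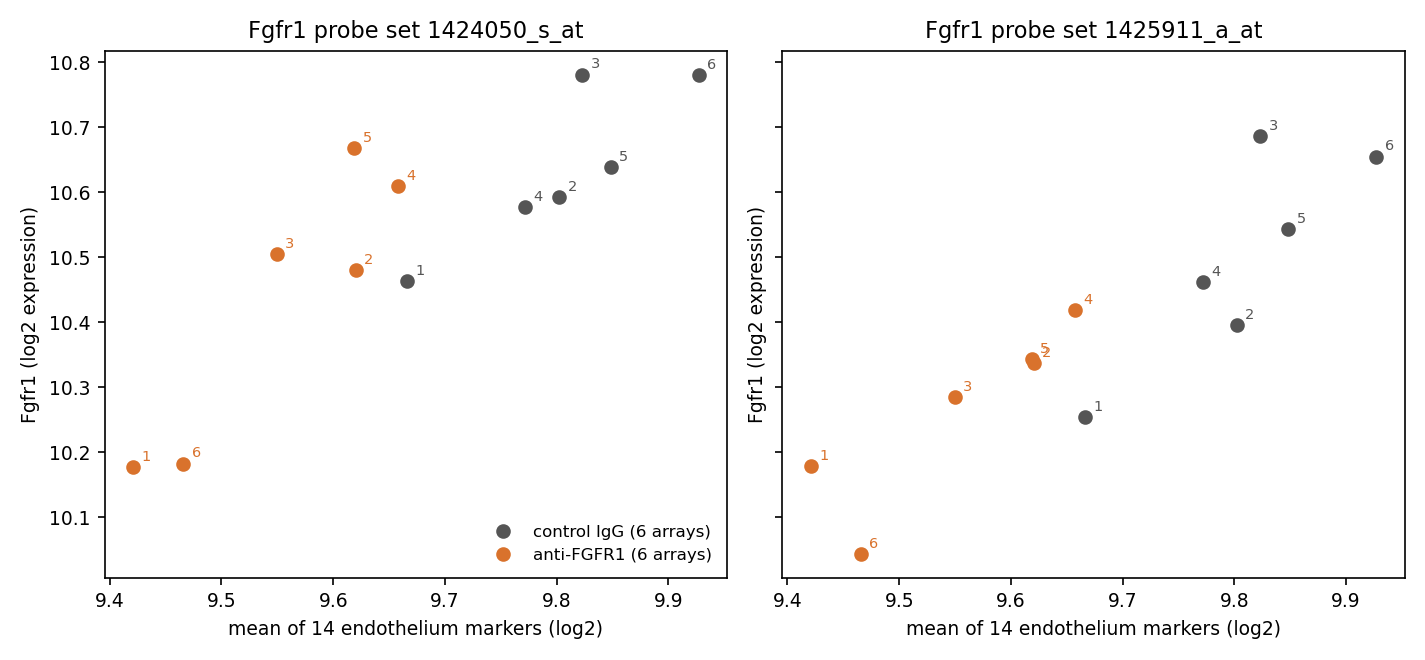
Log2 expression of the bright Fgfr1 probe sets (vertical axis) against the mean log2 expression of 14 endothelial markers (horizontal axis), with 1 point per array labelled by replicate. In both groups the arrays low in endothelial markers are low in Fgfr1, and the groups do not overlap on the horizontal axis (9.67 to 9.93 in controls, 9.42 to 9.66 after anti-FGFR1).

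Among all 18193 genes, those whose deviations from the group means were most like those of Fgfr1 over the 12 arrays were Ramp2 (r = 0.95, rho = 0.91), a membrane partner of the calcitonin receptor-like receptor, Adamts5 (r = 0.94, rho = 0.92), a protease that cleaves aggrecan, and Papss2 (r = 0.94, rho = 0.94), which makes the sulfate donor. Without the 2 farthest arrays r was 0.91, 0.89 and 0.87. These are the top of a long ranking and carry no test. Their own treatment differences were unlike: Ramp2 at -0.25 and Papss2 at -0.29 fell (limma adjusted p = 0.038 and 0.030), while Adamts5 was at 0.03 (limma adjusted p = 0.894).

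Fgfr2 encodes a receptor prominent in epithelium and in signalling between epithelium and mesenchyme. On probe set 1433489_s_at it read 7.98 to 8.27 on control arrays (median 8.12) and 8.09 to 8.44 on anti-FGFR1 arrays (median 8.25). The groups overlapped, with 2 of the 6 treated arrays above the highest control. The difference of 0.13 ± 0.06 (95% interval -0.005 to 0.27) did not pass (limma adjusted p = 0.241 over genes). Adjusting for the 3' to 5' signal moved it to 0.23 (limma adjusted p = 0.118) and adjusting for the macrophage mean to 0.07 (limma adjusted p = 0.587). The dimmer sets 1443211_at and 1420847_a_at lay on the same side at 0.11 ± 0.05 and 0.07 ± 0.09, neither past the test (limma adjusted p = 0.246 and 0.678). Of the epithelial markers, 1 of 8 measured was called higher, against 2.94% of all genes. Their mean was 7.03 in controls and 7.10 after anti-FGFR1 (exact permutation p = 0.139). Their part in the Fgfr2 readings was not tested.

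Fgfr3, best known as a brake on the growth of cartilage, read 7.84 to 8.47 on control arrays (median 8.07) and 8.02 to 8.24 on anti-FGFR1 arrays (median 8.07) with probe set 1421841_at. Controls spread more widely than treated arrays, with an SD of 0.23 against 0.08. The difference was -0.03 ± 0.09 (95% interval -0.22 to 0.16, limma adjusted p = 0.878). Its sign turned without control IgG replicate 5 (0.0036) or replicate 6 (0.04), so it had no settled direction. The second set, 1425796_a_at, was at -0.04 ± 0.07 (limma adjusted p = 0.796).

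Fgfr4, the receptor of liver that pairs with beta-Klotho, had 5 probe sets. Their differences ran from 0.05 to 0.12 and none passed. The brightest, 1427846_x_at, read 8.30 to 8.70 on control arrays and 8.51 to 8.68 on anti-FGFR1 arrays, with the treated values inside the range of the controls and a difference of 0.05 ± 0.07 (95% interval -0.09 to 0.19, limma adjusted p = 0.713). The largest of the 5 differences, 0.12 ± 0.07, was that of 1427777_x_at (limma adjusted p = 0.336). Set 1427776_a_at read only 3.50 to 3.87 over all arrays, near the bottom of the scale.

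Fgfrl1, the receptor without a kinase, was the member with a change past the test. Probe set 1451912_a_at read 11.46, 11.44, 11.43, 11.35, 11.36 and 11.30 on control arrays and 11.08, 11.18, 11.18, 11.22, 11.26 and 11.01 on anti-FGFR1 arrays. All 6 anti-FGFR1 arrays lay below the lowest control, as was the case, in that direction, for 3.33% of all probe sets. It fell by 0.23 on the log2 scale (SE 0.05, 95% interval -0.35 to -0.12, limma adjusted p = 0.015 over all probe sets), from 11.39 ± 0.06 to 11.16 ± 0.09 (SD, n = 6 per group), or to 0.850 of the control level. The exact permutation test of this probe set gave p = 0.0022, the smallest that 6 arrays against 6 allow.

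The other Fgfrl1 probe set, 1447878_s_at, was brighter and stood for the gene in the test with 1 probe set per gene. It read 12.36 to 12.61 on control arrays (median 12.41) and 12.18 to 12.48 on anti-FGFR1 arrays (median 12.31). There 5 of 6 anti-FGFR1 arrays lay below all controls and replicate 5 did not. Its difference, -0.14 ± 0.06 (95% interval -0.26 to -0.02), did not pass (limma adjusted p = 0.157 over genes). With the mean of both probe sets as the gene's value Fgfrl1 was at -0.19 and passed (limma adjusted p = 0.031), as did this set in the gene test adjusted for the 3' to 5' signal (-0.24, limma adjusted p = 0.046). The 2 sets' changes differed by 0.09 (exact permutation p = 0.035, adjusted p = 0.216 over 20 pairs), and their readings correlated between mice at r = 0.73 (adjusted permutation p = 0.101) and rho = 0.72 (adjusted permutation p = 0.145), with r = 0.60 without the 2 farthest arrays.

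The fall of 1451912_a_at passed when any 1 array was left out, with log2 fold changes between -0.26 and -0.20 and limma adjusted p between 0.015 and 0.038. It missed the threshold with the 3' to 5' signal as a covariate (-0.27, limma adjusted p = 0.053) and with the macrophage mean (-0.22, limma adjusted p = 0.052). It also missed it with the endothelial mean (-0.18, limma adjusted p = 0.469) and with the smooth muscle and pericyte mean (-0.23, limma adjusted p = 0.933), the 2 covariates that separate the groups without overlap. The 3' to 5' log2 difference went from 0.16 ± 0.03 in controls to 0.20 ± 0.03 in treated mice (SD, 6 arrays each; exact permutation p = 0.037), and its part in the Fgfrl1 fall was not tested beyond this fit. Within groups, 1451912_a_at followed the endothelial markers with r = 0.25 (adjusted permutation p = 0.794), the brown adipocyte markers with r = -0.18 (adjusted permutation p = 0.826) and the smooth muscle and pericyte markers with r = 0.02 (adjusted permutation p = 0.984).

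**Figure D4:**
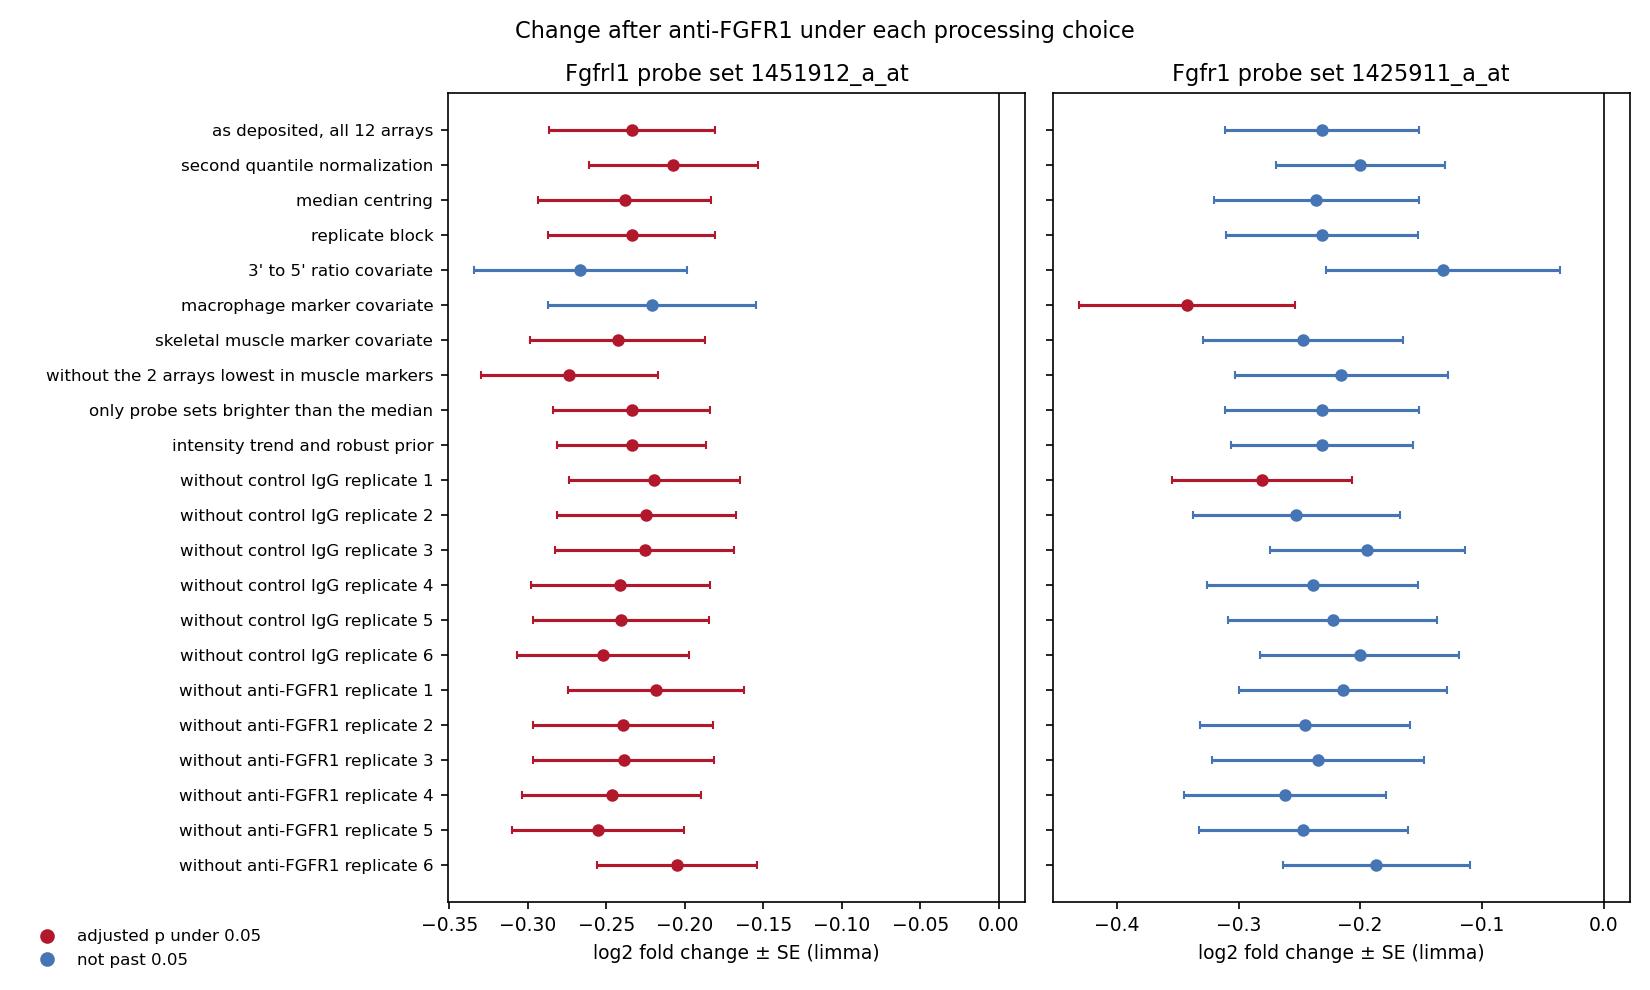
Log2 fold change ± SE (limma, horizontal axes) of Fgfrl1 probe set 1451912_a_at and Fgfr1 probe set 1425911_a_at with the values as deposited and under 21 other settings, 1 per line, without the endothelial and smooth muscle covariates; red marks an adjusted p under 0.05. The Fgfrl1 difference stays below 0 in every setting drawn, and of these it misses the threshold with the 3' to 5' covariate (-0.27) and the macrophage covariate (-0.22), while among the settings drawn the Fgfr1 difference passes with the macrophage covariate (-0.34) and without control IgG replicate 1 (-0.28).

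Klb encodes the co-receptor that FGF21 needs. Its bright probe set, 1449568_at, read 9.91 to 10.25 on control arrays (median 10.004) and 9.81 to 10.11 on anti-FGFR1 arrays (median 10.02). The groups lay over each other, with means of 10.04 ± 0.13 and 9.998 ± 0.10 (SD, 6 arrays each). The log2 fold change was -0.04 ± 0.06, and it did not pass (limma adjusted p = 0.749 over genes). Its 95% interval of -0.18 to 0.10 leaves room for a change of that size either way.

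The dimmer Klb set, 1426075_at, read 5.65 to 6.07 on control arrays (median 5.68) and 5.78 to 6.00 on anti-FGFR1 arrays (median 5.90). Of the controls, 5 lay at or below 5.76 and replicate 5 lay above every other array at 6.07. The difference of 0.15 ± 0.07 did not pass (limma adjusted p = 0.226), and without control IgG replicate 5 it was 0.22 and passed (limma adjusted p = 0.018). The 2 Klb sets correlated weakly between mice (r = 0.25, adjusted permutation p = 0.722; rho = 0.50, adjusted permutation p = 0.468), and their changes differed by -0.20 (exact permutation p = 0.043, adjusted p = 0.216 over 20 pairs).

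Because FGFR1 and beta-Klotho work as a pair, the change of Klb was set against that of Fgfr1 on the same arrays. Klb minus Fgfr1 was 0.16 higher after anti-FGFR1, which did not pass (exact permutation p = 0.164). Without control IgG replicate 2 it was 0.21 (exact permutation p = 0.043). The genes most like Klb in their deviations over the 12 arrays were Atp6v1f (r = 0.93, rho = 0.97), a subunit of the proton pump of acid organelles, Fas (r = 0.92, rho = 0.90), a death receptor, and Retsat (r = 0.91, rho = 0.97), a retinol saturase. Without the 2 farthest arrays r was 0.89, 0.86 and 0.84. Klb followed the brown adipocyte markers with r = 0.57 (adjusted permutation p = 0.407) and rho = 0.71 (adjusted permutation p = 0.208), which did not pass.

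Kl encodes alpha-Klotho. Both of its probe sets were dim. Set 1451892_at read 5.86 to 6.23 on control arrays (median 6.04) and 6.11 to 6.29 on anti-FGFR1 arrays (median 6.19), and 2 of the 6 treated arrays exceeded the highest control. The difference of 0.15 ± 0.06 (95% interval 0.03 to 0.27) did not pass (limma adjusted p = 0.136 over genes). Adjusting for the macrophage mean took it past the threshold (0.22, limma adjusted p = 0.046), in the fit that called 2080 genes. The other set, 1423400_at, was at 0.05 ± 0.08 (limma adjusted p = 0.749). At such dim readings a difference may be understated, and the table holds no detection call.

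As a description of the spread between mice, the pooled SD within groups was 0.17 for Fgfr1 and for Fgfr3, 0.12 for Fgfr4 and Klb, 0.11 for Fgfr2, and 0.10 for Fgfrl1 and Kl, beside a median of 0.11 over all genes.

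The rest of the pathway was counted from lists of genes by role, with 1 probe set per gene and beside the 8.03% of all genes called, 2.94% higher and 5.09% lower. Of the 18 FGF ligands, 0 rose and 2 fell, with a list median of 0.00. Fgf1, which binds every FGF receptor, read 9.67 to 9.97 on control arrays and 9.10 to 9.48 on anti-FGFR1 arrays, with the groups apart. It fell by 0.52 on the log2 scale (SE 0.07, limma adjusted p = 0.00044). Fgf18 read 6.58 to 6.99 on control arrays and 6.498 to 6.73 on anti-FGFR1 arrays and fell by 0.23 (SE 0.06, limma adjusted p = 0.040), a call that did not survive leaving out any of 10 arrays, nor leaving out the 2 arrays low in muscle markers, nor the macrophage or skeletal muscle covariate (limma adjusted p = 0.125, 0.084 and 0.057). Fgf23, the ligand of FGFR and alpha-Klotho, was at 0.15 ± 0.07 and Fgf21 at 0.09 ± 0.11, and neither passed (limma adjusted p = 0.193 and 0.654).

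Heparan sulfate holds FGF on its receptor, and several adhesion proteins bind FGF receptors in the membrane. Of 30 measured genes in this group 2 rose and 5 fell, with a median of -0.02. Cdh2, N-cadherin, read 10.83 to 11.06 on control arrays and 10.53 to 10.72 on anti-FGFR1 arrays and fell by 0.38 (SE 0.05, limma adjusted p = 0.00040). Gpc1, the glypican-1 core protein, fell by 0.26 (SE 0.06, limma adjusted p = 0.010), a call lost on adjusting for the macrophage mean (-0.17, limma adjusted p = 0.075) and after a second quantile normalization (-0.22, limma adjusted p = 0.057). The heparan sulfate proteoglycan Agrn fell by 0.24 (SE 0.05, limma adjusted p = 0.0060) on its brighter probe set, while its other set was at 0.07 and the mean of both did not pass (-0.08).

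The other called genes of that group, named after their values were seen, were Hs6st1 (-0.25), which adds 6-O-sulfate, Gpc4 (-0.19), Sdc4 (0.30), the syndecan-4 core protein, and Ncam1 (0.20). The group's count fell to 4, with 0 rises, without any 1 of control IgG replicates 2 and 3 and anti-FGFR1 replicates 4 and 6, as well as without the 2 arrays lowest in skeletal muscle markers, and to 3, with 0 rises, with the 3' to 5' covariate.

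Downstream of the receptors, 2 of 15 adaptors fell and 0 rose. Grb14, an inhibitor of receptor kinases, fell by 0.30 (SE 0.07, limma adjusted p = 0.017) and Ptpn11, the phosphatase SHP2, by 0.20 (SE 0.05, limma adjusted p = 0.018). Neither passed with the 3' to 5' covariate, nor Grb14 with the mean of its probe sets (-0.15) or the macrophage covariate (-0.26, limma adjusted p = 0.068). Shb was at 0.16 ± 0.05 and lay near the threshold (limma adjusted p = 0.074). It passed after a second quantile normalization (0.19, limma adjusted p = 0.040), among bright probe sets alone (limma adjusted p = 0.044) and with an intensity trend and robust prior (limma adjusted p = 0.048). Of the 7 measured genes of the RAS, RAF, MEK and ERK core, Braf fell on its brightest probe set (-0.25 ± 0.05, limma adjusted p = 0.0039). Of its 9 probe sets, 3 passed in that direction and 2 lay on the other side of 0, and the mean of them all did not pass (-0.10). Rps6ka3 (0.22) and Araf (-0.13) did not pass, although Rps6ka3 did without control IgG replicate 6 (0.26, limma adjusted p = 0.042) and after a second quantile normalization (0.25, limma adjusted p = 0.028), each of which made the count of called core genes 2. With the macrophage covariate Rps6ka3 was at 0.06.

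Among 19 measured feedback and target genes of ERK, 4 rose and 1 fell, with a median of 0.14. The phosphatase gene Dusp6 read 9.79 to 10.66 on control arrays and 10.86 to 11.11 on anti-FGFR1 arrays, and Spry4, an inhibitor of the pathway, 8.999 to 9.55 and 9.58 to 9.95. The groups did not overlap for either gene, and both are among the 3 of smallest p in their list. The 14 genes not called, with ends named after their values were seen, ran from -0.10 (Myc) to 0.46 (Ier3). With 1 probe set per gene, 0 of the 7 members passed on these arrays, against 8.03% of all genes. With every probe set tested, 1 of 19 passed, on Fgfrl1, against 6.90% of all probe sets. Its groups did not overlap, as was the case for 4.56% of all probe sets. Ccnd1, cyclin D1, fell by 0.90 (SE 0.11, limma adjusted p = 0.00029).

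Of 49 other measured receptor tyrosine kinases 3 rose and 6 fell, with a median of -0.01, and with the 3' to 5' covariate the count was 5. Pdgfra, a PDGF receptor, read 9.36 to 9.87 on control arrays and 9.91 to 10.34 on anti-FGFR1 arrays and rose by 0.62 ± 0.09 (limma adjusted p = 0.00069), or by 0.34 with the mean of its probe sets. Lmtk2 fell by 0.33 (SE 0.06, limma adjusted p = 0.0023) and Aatk by 0.45 (SE 0.08, limma adjusted p = 0.0043), but Aatk missed the threshold with the 3' to 5' covariate (-0.34). The others, named after their values were seen, were the macrophage receptor Csf1r (0.37) and Alk (0.17), which rose, and the endothelial receptors Tek (-0.34) and Tie1 (-0.35), Kit (-0.51) and Ntrk3 (-0.58), which fell. Tek and Tie1 belong to the endothelial marker list, Csf1r to the macrophage list and Pdgfra to the fibroblast list, of whose 10 measured genes 3 rose and 2 fell.

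**Figure D5:**
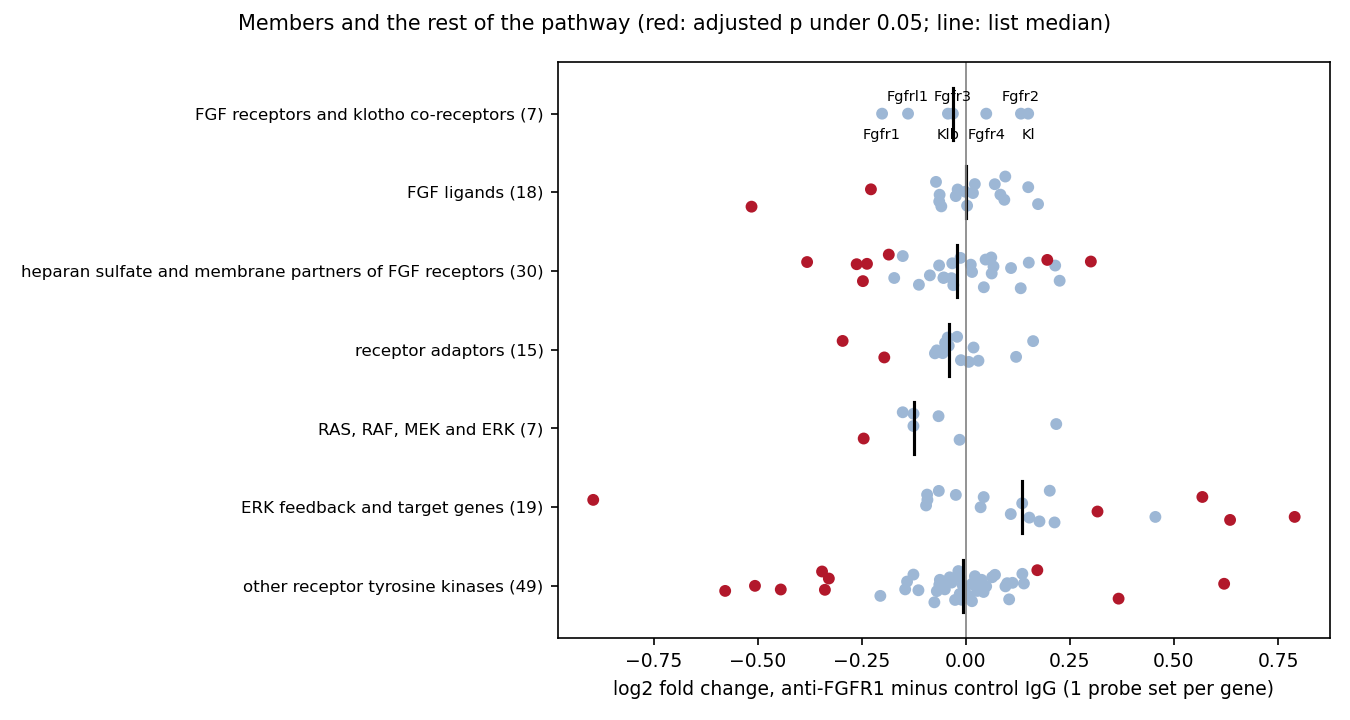
Log2 fold change, anti-FGFR1 minus control IgG (horizontal axis), of the 7 members and of 6 lists of related genes, with 1 point per gene, the number of measured genes in parentheses, a black line at each list's median and red for an adjusted p under 0.05 (limma). None of the 7 members is red, against 8.03% of all genes, and 7 genes are too few to tell that count from that share. The medians of the 6 lists lie between -0.13 and 0.14. Fgf1 (-0.52), Ccnd1 (-0.90), Dusp6 (0.63) and Pdgfra (0.62) are among the genes of smallest p in their lists, so they do not stand for those lists.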

How the data were processed

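The deposited values are log2 expression, 1 per probe set and array, which the authors made with RMA and limma per the submitters' processing notes, with no version given. RMA shrinks changes of dim probe sets, and quantile normalization assumes that arrays share a distribution. Of 45101 probe sets, 34945 had a single gene, 932 several and 9160 none; 64 were controls. Symbols came from the platform's table and a RefSeq table. Genes were tested on the probe set with the highest mean, 18193 in all, and probe sets all together, with limma 3.58.1 in R 4.3.3 (lmFit, eBayes, two-sided, no covariate, Benjamini-Hochberg, called under 0.05). Permutation tests of single values used all 924 assignments of 6 arrays; correlations used 100000 resamples within groups.

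Members, lists and tests were chosen with earlier results of these data known. Named genes were all members, Fgf21, Dusp6 and Spry4, the 3 genes of smallest p in each pathway list, and the 3 genes most like Fgfr1 and like Klb. Arrays give no counts, and their number limits the precision. Each array is a separate mouse.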

Additional observations from a re-analysis of the deposited data

Results flagged for a closer look

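In 8 of 98 groups of 6 arrays, 1 array lay farther from the rest than Dixon's 95% limit; chance does this in about 1 of 20 groups. Among members, Fgfr1 probe set 1436551_at read 7.83 on anti-FGFR1 replicate 4 (others 7.60 to 7.65), Fgfr3 probe set 1425796_a_at read 6.78 on anti-FGFR1 replicate 3 (others 7.08 to 7.27), and Klb probe set 1426075_at read 6.07 on control IgG replicate 5 (others 5.65 to 5.76).

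Of the other measures, Gpc1 read 9.38 on control IgG replicate 6 (others 9.56 to 9.67) and Fgf21 read 7.69 on control IgG replicate 5 (others 7.21 to 7.38). The 3' to 5' log2 difference was 0.221 on control IgG replicate 1 (others 0.139 to 0.163). The skeletal muscle mean was 6.89 on anti-FGFR1 replicate 5, and the nerve and Schwann cell mean was 9.51 on control IgG replicate 5.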

How the results depend on the processing

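Changing the processing moved the number of genes called from 1461 to 688 with the 3' to 5' covariate, and to 1043 to 1698 with 1 array left out. Probe sets called went from 2411 to 950 with that covariate, to 1596 without the 2 arrays lowest in skeletal muscle markers, and to 1700 to 2903 with 1 array left out. A second quantile normalization called 1492 genes, 732 higher and 760 lower, so 50.9% were lower against 63.4% as deposited.

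Member genes called were 1 with the 3' to 5' covariate (Fgfrl1, -0.24), 2 with the macrophage covariate (Fgfr1, -0.34, and Kl, 0.22) and 1 with the mean of probe sets (Fgfrl1, -0.19), but 0 with any 1 array left out. Of all 18193 genes, the 3' to 5' covariate called 688, the macrophage covariate 2080 and the mean of probe sets 1486, against 1461 as deposited. Member probe sets called were 0 with the 3' to 5' covariate, 2 with the macrophage covariate and 1 to 2 with 1 array left out. Over all 34945 probe sets the macrophage covariate called 3153, against 2411 as deposited. The 26 other pathway genes called became 16 with the 3' to 5' covariate.

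Fgfrl1 probe set 1451912_a_at missed the threshold with the 3' to 5' (-0.27), macrophage (-0.22), endothelium (-0.18) and smooth muscle (-0.23) covariates. Fgfr1 turned to 0.22 and 0.11 with the latter 2, which were added after seeing the data. With the 3' to 5' covariate, Fgfr3 turned to 0.046 (0.0063 on probe set 1425796_a_at), Fgfr4 to -0.0052 (-0.035 on 1427776_a_at) and Kl probe set 1423400_at to -0.058. Without the 2 arrays low in muscle markers Fgfr3 was 0.037, Fgfr4 -0.018 and the difference between the bright Fgfr1 sets -0.0038. With the mean of probe sets Klb was 0.055. The cause was not tested in any of these.

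With 1 array left out, Fgfr3 ranged from -0.089 to 0.039 (-0.075 to 0.024 on 1425796_a_at), Fgfr4 from -6.2e-05 to 0.081, Fgfr1 probe set 1436551_at from -0.0045 to 0.050, the difference between the bright Fgfr1 sets from -0.00088 to 0.064, and Klb minus Fgfr1 from 0.085 to 0.21. Same-numbered arrays correlated at -0.29 to 0.33 and 3 of 6 correlated best with their own number, so whether the numbers pair the mice is not settled by these values. With the replicate block, 1337 genes were called, and Fgfrl1 probe set 1451912_a_at kept its call (limma adjusted p = 0.029). Keeping only probe sets brighter than the median gave no value for Kl and the other dim sets. Small differences of dim probe sets are beyond what these arrays show.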
